A study of Mus musculus with 3 samples.

Results

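Open chromatin regions (OCRs) that had a called peak at E12.5 and at neither later stage were described in tdTomato+ mesenchymal progenitors (MPs) of the mouse forelimb. The 3 peak lists of the study, 1 for each library, were merged wherever peaks shared at least 1 bp, which gave 266531 regions. Of these, 184958 held an E12.5 peak, 51949 held an E12.5 peak only, and 50957 of those lay on an autosome. The members were the 6770 autosomal E12.5-only OCRs with a count in 1% or more of E12.5 nuclei, that is in at least 83 of 8294. The members were thus chosen by measured values, the peak calls of all 3 libraries and the share of E12.5 nuclei with a count. Their absence from the later lists and their share of nuclei are therefore descriptions, not results.

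All 3 libraries came from C57BL/6J embryos of the genotype Hic1CreERT2/CreERT2;Rosa26LSLtdTomato/tdTomato whose dams were gavaged with 7.5 mg tamoxifen at E10. The Hic1 promoter drives the tamoxifen-dependent Cre, so the tdTomato reporter marks cells that used Hic1 around that day, together with their descendants, and both Hic1 alleles carry CreERT2 in every group. Whole forelimbs were used at E12.5 and E14.5, whereas at E16.5 the sample was the elbow-joint segment of the limb. Limb pairs were pooled, haematopoietic, endothelial, macrophage and erythroid cells were sorted out by surface antigens, and the enzymes of dissociation differed, with Dispase at E12.5 and Collagenase A, Pronase and DNase later. With 1 library per stage, the stage, the segment, the enzymes and the library cannot be told apart, and stages could not be tested against each other.

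The E12.5 library was the shallowest per nucleus, with a median of 6004 transposase cut sites in peaks, against 8575 at E14.5 (20023 nuclei) and 26694 at E16.5 (14048 nuclei). At E12.5 a count fell in the promoter region of Hic1 in 31.0% of nuclei, in that of Pdgfra, a mesenchymal receptor, in 30.2%, and in that of Tbx5, a forelimb identity factor, in 26.0%. Counts in the promoter regions of Pecam1 (endothelium) and Krt5 (epithelium) were found in 0.76% and 0.313% of nuclei, and no E12.5 peak lay over a start site of Ptprc, which encodes CD45. The promoter regions of Epcam (epithelium), Myod1 (muscle), Elavl3 (neurons) and Sox10 (neural crest) held a count in 6.02%, 5.91%, 3.99% and 3.53% of nuclei.

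ATAC-seq cuts DNA where nucleosomes leave it accessible, at promoters, at distal enhancers and at sites bound by architectural proteins such as CTCF. Promoters tend to be accessible in many cell types, while distal elements are the part of the accessible genome that changes most between cell types and stages. In the limb bud, patterning genes such as the Hox, Sall, Irx and Tbx families are controlled by many distal elements, often spread over gene-poor stretches. The nucleus of a single cell yields few fragments, and none at most OCRs, so the share of nuclei with a count is not the share of cells in which an OCR was accessible.

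The sequences of the 5 most open members off promoters, with under 30% repeat-masked bases, are printed to show what such an OCR consists of. Each is the central 300 bp on the plus strand of GRCm38 (mm10) from the RefSeq copy of the genome, named by its window and by the protein-coding gene with the nearest start site. Capitals mark matches on either strand to any of 21 short motifs searched (listed with their shares further on).
chr17:81339547-81339846 (Gm11096): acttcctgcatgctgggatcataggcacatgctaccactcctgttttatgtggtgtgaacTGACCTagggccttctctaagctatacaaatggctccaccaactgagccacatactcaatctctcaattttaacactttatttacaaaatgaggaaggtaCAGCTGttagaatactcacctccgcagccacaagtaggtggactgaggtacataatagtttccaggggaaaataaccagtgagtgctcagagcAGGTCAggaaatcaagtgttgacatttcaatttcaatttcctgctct
chr2:166382199-166382498 (Prex1): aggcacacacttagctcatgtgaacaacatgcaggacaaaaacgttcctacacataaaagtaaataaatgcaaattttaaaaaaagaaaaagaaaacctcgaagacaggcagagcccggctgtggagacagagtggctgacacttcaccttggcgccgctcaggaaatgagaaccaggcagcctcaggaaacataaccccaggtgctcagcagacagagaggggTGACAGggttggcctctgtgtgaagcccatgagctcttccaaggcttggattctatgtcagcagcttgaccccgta
chr15:41984044-41984343 (Abra): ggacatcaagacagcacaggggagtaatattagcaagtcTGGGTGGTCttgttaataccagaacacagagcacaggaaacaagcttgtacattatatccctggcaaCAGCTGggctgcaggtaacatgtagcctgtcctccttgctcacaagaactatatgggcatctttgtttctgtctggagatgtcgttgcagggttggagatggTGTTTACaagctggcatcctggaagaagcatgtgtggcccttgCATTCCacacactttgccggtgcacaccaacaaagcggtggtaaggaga
chr1:120626410-120626709 (En1): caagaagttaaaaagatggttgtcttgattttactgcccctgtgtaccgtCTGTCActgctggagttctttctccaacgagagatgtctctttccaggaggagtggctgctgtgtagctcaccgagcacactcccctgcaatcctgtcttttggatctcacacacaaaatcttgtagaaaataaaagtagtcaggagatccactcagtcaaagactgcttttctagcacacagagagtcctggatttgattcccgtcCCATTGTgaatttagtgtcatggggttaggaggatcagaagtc
chr1:76906452-76906751 (Epha4): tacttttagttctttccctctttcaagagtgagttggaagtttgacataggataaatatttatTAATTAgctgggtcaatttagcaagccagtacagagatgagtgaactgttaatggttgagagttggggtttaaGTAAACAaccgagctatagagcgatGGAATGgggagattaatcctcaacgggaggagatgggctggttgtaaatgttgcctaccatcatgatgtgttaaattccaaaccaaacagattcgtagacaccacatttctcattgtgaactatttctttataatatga
The window nearest Gm11096 held an E-box CAGCTG and a pair of nuclear receptor motifs AGGTCA, and the window nearest Prex1 held a single MEIS motif TGACAG. The window nearest Abra held an E-box CAGCTG and the motifs of TEAD (GGAATG), FOX (TGTTTAC) and GLI (TGGGTGGTC). In the window nearest En1 a MEIS and a SOX motif (ACAATGG) were found, and in that nearest Epha4 the motifs of TEAD, FOX and a homeodomain (TAATTA). A match to such short letters is a description and not a binding site.

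The members made up 6770 of the 88054 autosomal E12.5 regions with a count in 1% or more of nuclei (7.69%), and that share fell steeply with openness. Among regions open in 1 to 1.25% of nuclei 22.1% were E12.5-only (95% exact binomial interval 21.4 to 22.8), among those open in 2 to 3% it was 5.13% (4.79 to 5.48), and among those open in 5 to 10% it was 0.0675%, or 9 regions. None of the 9263 regions open in 10% or more of nuclei was a member (interval 0 to 0.0398%). Intervals cover counting error only. The members' share of nuclei had a median of 1.33%, quartiles of 1.13 and 1.69% and a maximum of 6.78%. Just inside the threshold, 206 members had a count in 83 nuclei (median 173 cut sites), and just outside it 165 E12.5-only OCRs had a count in 82 nuclei (median 172 cut sites). The later lists also held weak peaks, in nuclei with more cut sites in peaks: 18.9% of the autosomal E14.5 peaks and 16% of the E16.5 peaks had a count in under 1% of their own nuclei, as did 52.1% of the E12.5 peaks. A region absent from a list lay below that library's calling threshold. The later matrices hold counts only in their own peaks, so a residual level of a member at E14.5 or E16.5 was not measured.

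**Figure D1:**
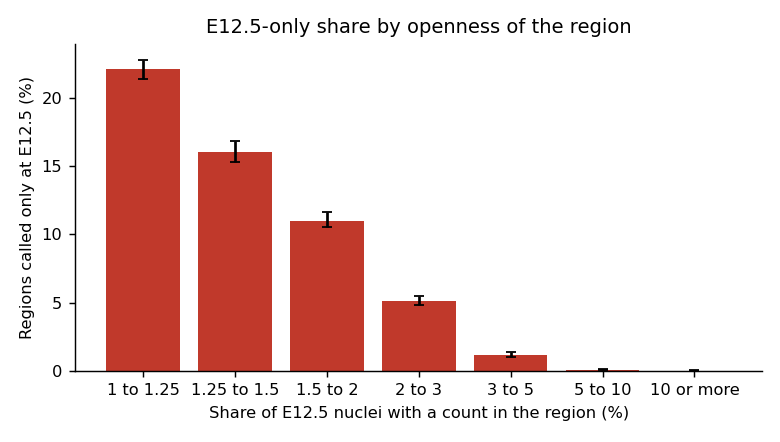
Share of autosomal E12.5 regions that were called only at E12.5 (vertical axis, %), by the share of E12.5 nuclei with a count in the region (horizontal axis, %). Bars are shares and error bars 95% exact binomial intervals, and the share falls from 22.1% at 1 to 1.25% of nuclei to 0 at 10% or more.

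Together the members spanned 5.81 Mb and held 1868881 cut sites, 2.15% of the E12.5 library. A nucleus had a median of 65.0 members open (5th to 95th percentile 5.0 to 336), and 8281 nuclei had at least 1. Per nucleus the members took a median of 2.23% of cut sites (1.21 to 3.43). This share varied little with depth, with a Spearman rho of -0.12 over nuclei, which is a description since members and depth come from the same counts.

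The members lay far from start sites. Promoters, defined as 1000 bp upstream to 100 bp downstream of a start site, were overlapped by 187 members (2.76%, interval 2.38 to 3.18), exons by 535 of the others (7.9%), introns alone by 3050 (45.1%), and 2998 (44.3%) were intergenic. Of the 52466 OCRs present in every list and open over the same range of nuclei, 10.9% (10.7 to 11.2) were promoters, and 5.62% of those open in 1 to 2% of nuclei. The 11058 OCRs of the E12.5 and E16.5 lists in that range were promoters in 4.98% of cases (4.58 to 5.4). E12.5-only OCRs open in under 1% of nuclei were promoters in 2.46%, and the 1572 OCRs of the E12.5 and E14.5 lists in 2.99% (2.2 to 3.96), so a low promoter share was not particular to the members. The median distance from a member to the nearest start site of any gene was 24418 bp, against 14569 bp for OCRs of every list and 17223 bp for those of the E12.5 and E16.5 lists. To a protein-coding start site it was 79036 bp, against 37802 and 45302 bp. As many as 2947 members (43.5%) lay 100 kb or more from any protein-coding start site, compared with 26.2% of OCRs of every list, and 469 (6.93%) lay 500 kb or more away, compared with 2.41%. The OCRs of the E12.5 and E14.5 lists were farther still, with a median of 102258 bp, so distance did not set the members apart from every other set. Classes and distances were taken from the whole merged region, and a wider region reaches a start site more easily. The median width was 766 bp for members, 1242 bp for OCRs of every list and 931 bp for those of the E12.5 and E16.5 lists. The sets were not matched for width.

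**Figure D2:**
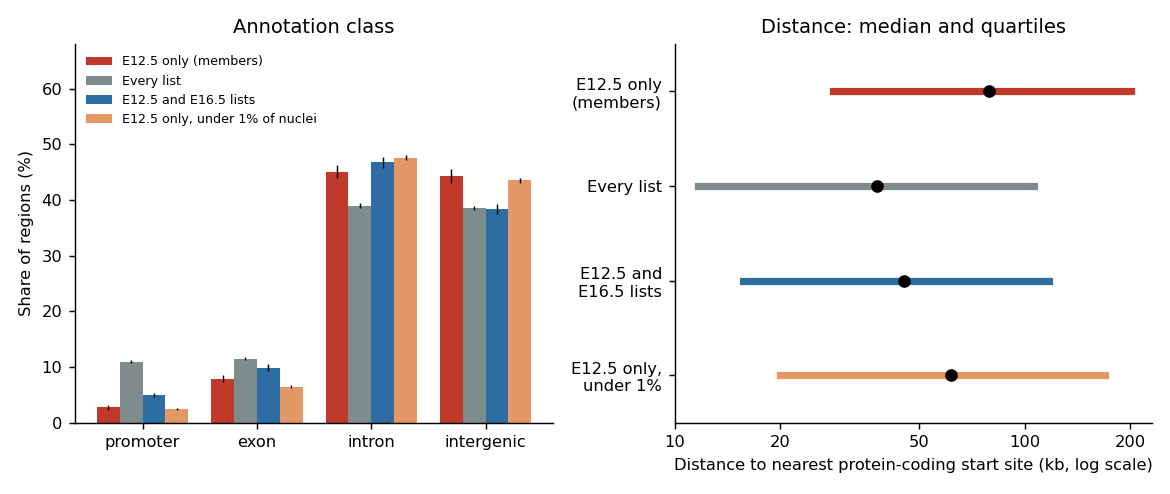
Left, share of regions by annotation class (vertical axis, %), with 95% exact binomial intervals, for the members, for OCRs of every list and of the E12.5 and E16.5 lists (both in the members' range of openness) and for E12.5-only OCRs under 1% of nuclei. Right, median (point) and quartiles (bar) of the distance to the nearest protein-coding start site in kb on a log axis, where the members have the longest median, 79036 bp.

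By the rule no member overlapped a later peak, and the distance to the nearest one was measured. The gap to the nearest E16.5 peak had a median of 3598 bp (quartiles 1495 and 8804), and that to the nearest E14.5 peak a median of 7968 bp (3298 and 19414). An E16.5 peak lay within 500 bp of 335 members (4.95%) and within 1000 bp of 1048 (15.5%), and an E14.5 peak within 500 bp of 19 (0.281%). The E14.5 list held 100429 autosomal peaks and the E16.5 list 208869. Gaps and shares were not adjusted for list length, so they do not tell which later stage the members lay nearer to. OCRs of the E12.5 and E14.5 lists, which also overlapped no E16.5 peak, had nearly the same gap to one, with a median of 3606 bp and 4.58% within 500 bp.

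The 10 members open in the largest share of nuclei all lay off promoters. The first, chr17:81339178-81340215, was intergenic, 101548 bp upstream of the nearest protein-coding gene Gm11096, and had a count in 562 nuclei, 6.78% (interval 6.24 to 7.34). The second, chr2:166381818-166382879 in an intron of the non-coding gene Gm14268, lay 199192 bp downstream of the start of Prex1, a Rac exchange factor, and was open in 6.69%. The third, chr15:41983159-41985229, was intergenic near Abra and open in 6.02%. An OCR at chr1:120625357-120627762, open in 5.46% of nuclei, lay 22939 bp downstream of the start of En1, the homeobox gene of ventral ectoderm and of a dermal fibroblast lineage, in an intron of 2610027F03Rik, and its nearest E16.5 peak was 886 bp away. The others were an OCR 607048 bp from Epha4, an ephrin receptor of limb innervation (5.4%), one 363973 bp from Fbxo8 (5.35%), a pair in introns of Sntg2 (5.09 and 4.99%), one in Cadm2 (5.04%) and one in Magi2 (5.0%). Their distances to the nearest E16.5 peak ranged from 886 to 14502 bp.

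Taking for each member the nearest protein-coding start site, 3529 of 20807 autosomal protein-coding genes (17.0%) were nearest to at least 1 member. The most members, 20 of the 60 OCRs open in 1% or more of nuclei (33.3%), were nearest to Cdh2, the gene of N-cadherin. They were spread over 1840 kb of chromosome 18 and open in 1.01 to 3.74% of nuclei. Flrt2, which encodes a membrane protein of cell adhesion and guidance, followed with 16 of 62 OCRs, 14 of them intergenic, and Tenm2, a teneurin, with 15 of 42. Next came Pcdh9, a protocadherin (14 of 44), Rbfox1, an RNA splicing factor (14 of 50), Sall1, a zinc-finger factor of the limb (14 of 51), and Mecom, a transcription factor of progenitor cells (14 of 68). Cbln4, a secreted cerebellin-family protein, had 13 of 32 (40.6%, the highest share of these genes), Sox5, a cofactor of SOX9 in cartilage, 13 of 58, Cdh4, the gene of R-cadherin, 13 of 59, and Adgrl2, a latrophilin, 13 of 111. Against the 7.69% of all OCRs, the share of members was above 11% at each of these 11 genes, but the genes were picked for their number of members, and no test applies.

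The 3 windows of 500 kb with the most members lay on chromosomes 3, 6 and 12. Along chr3:30000001-30500000, inside which Mecom is the only protein-coding gene, 11 of 48 OCRs were members, open in 1.3 to 4.5% of nuclei. A further 11 of 40 lay in chr6:6000001-6500000, a window with Dync1i1 and Slc25a13. The window chr12:26500001-27000000, with 10 members among 26 OCRs, contained no protein-coding gene, and the nearest was Cmpk2. At least 1 member lay in 3101 of 4525 windows that held any OCR open in 1% of nuclei, and 1338 members (19.8%) lay in the 231 windows with 5 or more. Those 231 windows were picked by their members, and the share of all OCRs in them was not taken, so the 19.8% does not measure clustering.

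Limb patterning factors were the list with the most members nearest to them. Of its 38 genes 26 were nearest to a member (68.4%, beside 17.0% over all genes), and 88 of the 692 OCRs nearest to them were members (12.7%, interval 10.3 to 15.4), beside 7.69% over all OCRs. Sall1 (14), Sall3 (10 of 36), Hand2 (6 of 31) and Meis1 (6 of 48) were among the leading genes, all of them transcription factors of limb or body axis patterning. The Hand2 OCR chr8:57148825-57150062 was open in 2.81% of nuclei, and the Prrx1 OCR chr1:163203453-163204460 in 2.77%. Single members were nearest to Gli3 (of 43 OCRs), Hoxa13 (of 7) and Msx1 (of 11). Genes with large intergenic surroundings can collect more OCRs of any kind, so the share of OCRs is given beside the number of genes. That share depends on distance as well: 43.5% of members lay 100 kb or more from a protein-coding start site, against 26.2% of OCRs of every list. The lists were not matched for distance, and the list intervals treat OCRs as independent.

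Among the other developmental lists, MP genes had 33 members among 250 OCRs (13.2%, 9.26 to 18), with 9 of 30 nearest to Id2, an inhibitor of bHLH factors, 9 of 54 nearest to Sox11, a SoxC factor of embryonic mesenchyme, 7 to Tcf7l2 and 5 to Osr1. The Sox11 OCR chr12:27575444-27576774 was open in 4.69% of nuclei. Early growth and timing genes, which share Sox11 and Hmga2 with that list, had 28 of 242 (11.6%, 7.83 to 16.3), including 7 of 29 for Mycn and 7 of 59 for Sox4. Somite and paraxial mesoderm factors had 25 of 346 (7.23%, 4.73 to 10.5), with 8 of 29 nearest to Eya1, whose exonic OCR chr1:14252444-14254421 was open in 2.95% of nuclei, and 4 of 23 nearest to Pax9. Chondrogenic genes had 29 of 260 (11.2%, 7.6 to 15.6), of which 13 belonged to Sox5, 5 to Sox6 and 5 to Sox9. Joint genes had 8 of 165 (4.85%, 2.12 to 9.33) and tenogenic genes 2 of 87 (2.3%, 0.28 to 8.06), both nearest to Mkx. Dermal fibrogenic genes had 14 of 149 (9.4%, 5.23 to 15.3), with 6 of 36 for Irx1 and 3 of 25 for En1. Fibrogenic genes had 2 of 46 (4.35%, 0.531 to 14.8) and pericyte genes 3 of 32 (9.38%, 1.98 to 25). The perineural list reached 16 of 64 (25%, 15 to 37.4), but 15 of its members were nearest to Tenm2. Among these lists, the intervals of the MP, the early growth and timing and the perineural genes lay above the 7.69% of all OCRs. The intervals of the others held it.

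In the signalling lists the Wnt pathway had 37 members among 408 OCRs (9.07%, 6.47 to 12.3), nearest to 17 of its 24 genes (70.8%, beside 17.0% over all genes). Its interval held the 7.69% of all OCRs, as did those of the other signalling lists and of the cell cycle genes except the Hedgehog pathway. The secreted Wnt enhancers Rspo3 and Rspo2 had 5 of 17 and 4 of 11, and the Wnt5b OCR chr6:119580234-119581140, in an intron of Erc1, was open in 4.2% of nuclei. The FGF pathway had 16 of 227 (7.05%), of which 8 of 28 were nearest to Fgf9, and the Fgf10 OCR chr13:118805617-118807129 was open in 2.68%. The BMP and TGF-beta pathway had 19 of 319 (5.96%), with 7 of 38 nearest to Bmp2. The retinoic acid pathway had 7 of 154 (4.55%), and the Hedgehog pathway 7 of 195 (3.59%, 1.46 to 7.26), including an OCR 29542 bp from Ptch1, the Hedgehog receptor, open in 2.93%. Cell cycle genes had 10 of 134 (7.46%).

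Of the 6 lists of cell types outside the MP lineage, 5 had an interval that held the 7.69% of all OCRs. The neuronal list, with 16 of 92 OCRs (17.4%, 10.3 to 26.7), was the exception, and Isl1 led it with 6 of 25. Its other members were nearest to Stmn2, Elavl4, Syt1, Nefm and Gap43, with 2 each. Counts were 14 of 115 for the myogenic list (12.2%, 6.82 to 19.6), 11 of 91 for the epithelial list (12.1%, 6.19 to 20.6), 12 of 114 for the blood and macrophage list (10.5%, 5.56 to 17.7), 9 of 108 for the endothelial list (8.33%, 3.88 to 15.2) and 2 of 37 for the Schwann and neural crest list (5.41%, 0.661 to 18.2). The 6 lists held 37 to 115 OCRs each, beside 692 for limb patterning factors, so their intervals are wide. The myogenic and epithelial shares lay near the 12.7% of limb patterning factors. Nearest position does not tell which gene an OCR serves, and the part of other cells in these members was not tested.

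The base composition of the members differed a little from that of shared OCRs. Their GC content had a median of 44.4%, against 46.6% in OCRs of every list in the same range of openness and 46.2% in those of the E12.5 and E16.5 lists, and the ratio of observed to expected CpG was 0.201, against 0.245 and 0.218. The repeat-masked share was similar, at 12.1, 12.8 and 12.4%.

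Motifs were counted as present or absent on either strand in the central 300 bp, and motifs may overlap each other. The window had this length whatever the width of the region, so in narrower regions it reached into flanking DNA. The NFI motif TTGGCA was present in 9.42% of members (8.74 to 10.1), in 17.5% of OCRs of every list, in 12.1% of those of the E12.5 and E16.5 lists, and in 15.5% of all autosomal E12.5 regions. The CTCF core CCANNAGGG was present in 4.58% of members against 7.2% of OCRs of every list, and the SP/KLF motif GGGCGG in 3.83% against 10.3%. NFI proteins are transcription factors of maturing tissues, CTCF marks domain boundaries, and SP and KLF factors bind CpG-rich promoters. Over the members' range of openness, motifs more frequent in members than in OCRs of every list were TEAD (GGAATG, 25.4% against 20.1%), SOX (ACAATGG, 5.24% against 3.49%), FOX (TGTTTAC, 6.4% against 4.54%), E-box CATATG (9.45% against 6.86%), a bHLH motif, posterior HOX (TTTATGG, 7.33% against 5.17%), PBX-HOX (TGATTTAT, 2.42% against 1.76%) and homeodomain (TAATTA, 9.81% against 7.65%). The E-box CATCTG (31.8% against 28.8%), MEIS (TGACAG, 22.6% against 21.2%) and nuclear receptor (AGGTCA, 17.9% against 16.1%) motifs were also more frequent in members over that range. OCRs of the E12.5 and E16.5 lists had the MEIS and nuclear receptor motifs in 23.5% and 18.2%, no less often than members, E-box CATCTG in 30.5% and FOX in 5.72% (5.29 to 6.16, beside 5.82 to 7.01 in members). They had TEAD in 22.8%, SOX in 4.08%, E-box CATATG in 7.42%, posterior HOX in 4.79%, PBX-HOX in 1.69% and homeodomain in 8.26%. E12.5-only OCRs open in under 1% of nuclei had several of these shares near those of the members, with NFI in 11%, TEAD in 27.8%, SOX in 4.39%, FOX in 5.8%, E-box CATATG in 8.62%, posterior HOX in 6.18%, CTCF in 5.24% and SP/KLF in 4.56%. Those OCRs had a median width of 322 bp and a lower quartile of 183 bp, so many of their windows held flanking DNA. The narrowest member had 447 bp.

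Since members were poorer in GC and in promoters, the shares were also taken off promoters, at 40 to 50% GC and in OCRs open in 1 to 2% of nuclei, which left 3705 members, 12296 OCRs of every list and 5580 of the E12.5 and E16.5 lists. These bands restrict the sets and do not match them. At 1 to 2% of nuclei alone, the median openness was 1.27% in members and 1.46% in OCRs of every list. The median width there was 731 and 923 bp. There the NFI motif was present in 9.5% of members and 20.5% of OCRs of every list, CTCF in 3.86% and 6.91%, SP/KLF in 3.21% and 5.08%, TEAD in 25.8% and 20.7%, SOX in 5.34% and 3.73%, FOX in 6.21% and 4.46%, and E-box CATATG in 9.72% and 7.6%. The differences of posterior HOX (6.99% against 5.86%) and homeodomain (9.37% against 8.47%) were smaller there. Within the bands OCRs of the E12.5 and E16.5 lists had NFI in 12.4%, CTCF in 5.57%, SP/KLF in 4.78%, TEAD in 23% and SOX in 4.18%. They had E-box CATATG in 7.29%, posterior HOX in 4.48% and homeodomain in 8.14%. Their FOX share, 5.73% (5.14 to 6.38, beside 5.45 to 7.03 in members), and nuclear receptor share, 18.1%, were near those of the members. Over all OCRs in the members' range, the AP-1 motif TGANTCA was present in 12.6% of members and 11.6% of OCRs of every list, whereas OCRs of the E12.5 and E16.5 lists had it in 21.7% (20.9 to 22.5) and E12.5-only OCRs under 1% of nuclei in 16.3%. On that scale members and OCRs of every list had E-box CAGCTG in 21.8% and 21.7%, RUNX (TGTGGTT) in 6.74% and 6.97%, LEF/TCF (CTTTGAT) in 4.17% and 4.38% and MEF2 in 0.384% and 0.414%. Within the bands the same motifs were present in 21.6% and 20.6%, 6.91% and 7.93%, 4.02% and 4.69%, and 0.297% and 0.472%. The motif AGATAA of GATA factors was present in 11.6% and 12.3% over all OCRs in the range, and in 11.4% (10.4 to 12.5) and 14.1% (13.5 to 14.7) within the bands. OCRs of the E12.5 and E16.5 lists had it in 12.5% (11.7 to 13.4) there. ETS (CCGGAAG) was present in 1.15% of members and 2.0% of OCRs of every list over the range, but in 1.05% and 1.08% within the bands. GLI was present in 0.236% of both sets over the range, and in 0.297% (0.148 to 0.531) and 0.195% (0.125 to 0.29) within the bands. There the E-box CATCTG was present in 31.5% of members and 31% of OCRs of every list, MEIS in 23% and 21.6%, nuclear receptor in 18.2% and 15.8%, and PBX-HOX in 2.19% (1.74 to 2.71) and 1.76% (1.53 to 2).

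**Figure D3:**
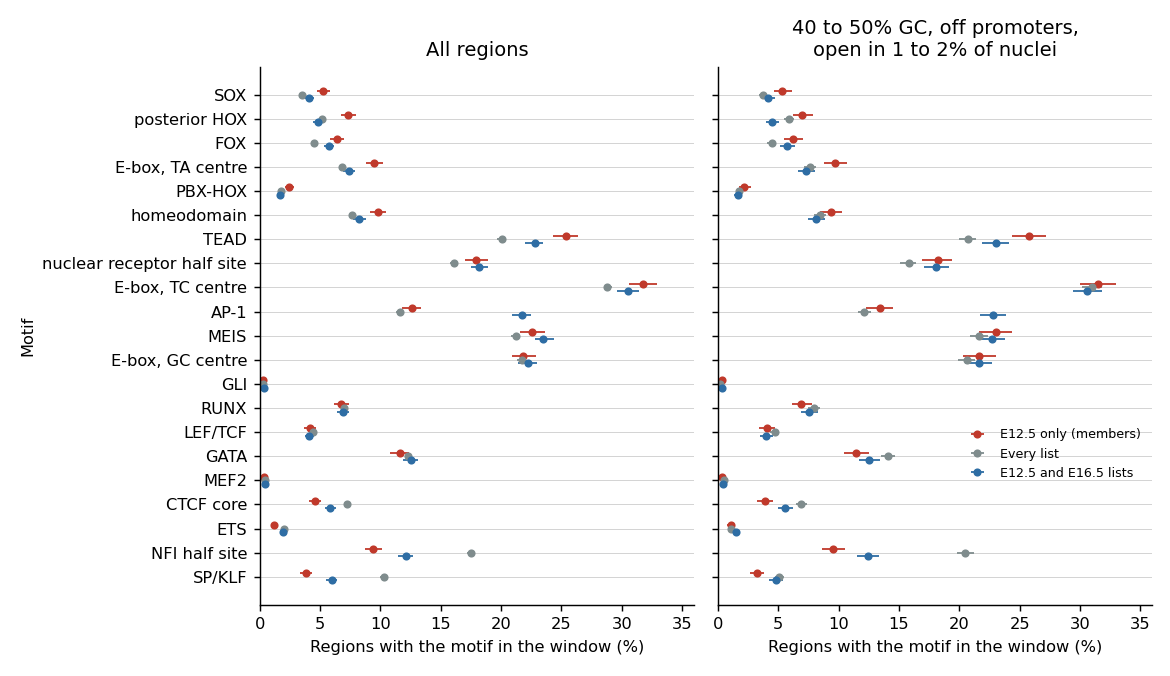
Share of regions with each motif in the central 300 bp (horizontal axis, %), with 95% exact binomial intervals, for all regions in the members' range of openness (left) and for those off promoters with 40 to 50% GC and open in 1 to 2% of nuclei (right). On both sides the NFI motif is rarest in the members, at 9.42 and 9.5%, and the AP-1 motif is most frequent in OCRs of the E12.5 and E16.5 lists.

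Within E12.5 nuclei, nearby members opened together more often than expected. The number of nuclei with both OCRs of a pair open was divided by the number expected if the OCRs opened independently among nuclei of like depth, in 50 depth bins. For 357 pairs of members 2 to 10 kb apart, 2914 joint openings were observed where 1705 were expected, a ratio of 1.709. The ratio fell to 1.453 at 10 to 50 kb, 1.337 at 50 to 250 kb and 1.249 at 250 to 1000 kb, and was 1.063 for pairs on different chromosomes. With openness held to 1 to 2% of nuclei, members gave 1.750, 1.488, 1.360 and 1.253 over the same distances and OCRs of every list gave 1.522, 1.382, 1.282 and 1.207. OCRs of the E12.5 and E16.5 lists, held to the same openness, gave 1.666, 1.458, 1.331 and 1.250. At each of these distances they lay slightly below the members and nearer to them than OCRs of every list did. Pairs share OCRs and nuclei, so these ratios carry no p-value. Between different chromosomes the 3 sets gave 1.064, 1.045 and 1.067 at that openness.

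**Figure D4:**
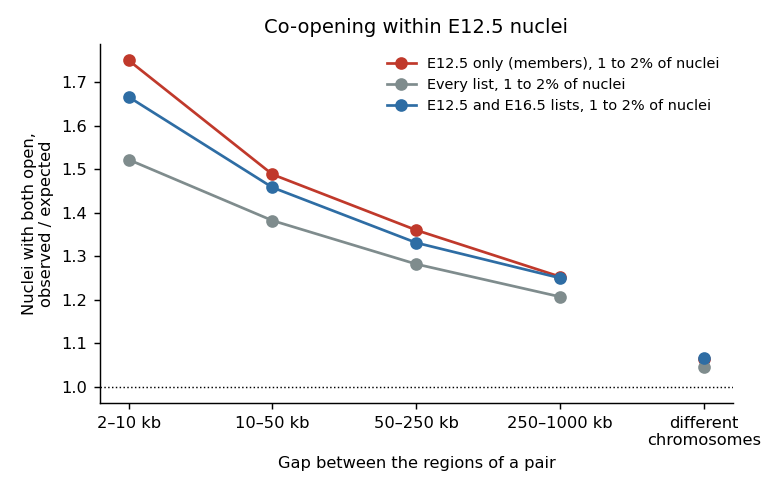
Nuclei with both regions of a pair open, observed over expected in 50 depth bins (vertical axis), by the gap between the regions (horizontal axis), for 3 sets of regions open in 1 to 2% of nuclei. The ratio declines with distance in every set, and at each distance on a chromosome the members lie above OCRs of every list, with 1.750 against 1.522 at 2 to 10 kb.

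Pairing of a member with the nearest protein-coding promoter showed no such difference. For 4693 members 2 to 500 kb from an accessible promoter the ratio was 1.154, compared with 1.149 for 35746 OCRs of every list. With openness held to 1 to 2% of nuclei the ratios were 1.157 for members and 1.159 for OCRs of every list. At that openness it was 1.193 at 2 to 20 kb, 1.162 at 20 to 100 kb and 1.139 at 100 to 500 kb for members, and 1.190, 1.157 and 1.135 for OCRs of every list. Against promoters on other chromosomes members gave 0.994. Among the 3167 members with at least 20 nuclei expected, the median ratio was 1.142 (quartiles 1.055 and 1.238). The highest of these ratios, 1.79, was that of an intergenic OCR at chr10:31069198-31069964, 226397 bp from Hey2, a bHLH repressor of the Notch pathway. There 42 nuclei had both open and 23.4 were expected, and a ratio picked as the highest of so many is a description.

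To ask how the members were spread over the nuclei, E12.5 nuclei were grouped into 7 k-means clusters on the OCRs of every list, so that members did not enter the grouping. Clusters held 572 to 1722 nuclei, and cluster 7 stood apart by depth, with a median of 30926 cut sites against 4239 to 8117 in the others. They are called by number, since the marker lists differed little between them: the summed level of a list varied from 1.1-fold to 1.56-fold over clusters. Chondrogenic genes had the widest range, with 1640 per 1000000 in cluster 4 and 1050 to 1290 elsewhere, and the 5 OCRs leading cluster 4 were nearest to Wwp2 (19.1-fold over other nuclei), Prkaa2 (14.6-fold), Gm21897 (12.6-fold), Papss2 (12.1-fold), a cartilage sulphation enzyme, and Mbnl2 (12.1-fold). These 5 OCRs were picked for their fold, and the clusters were themselves made on OCRs of every list. Their folds are therefore descriptions and do not name the cluster. Levels are cut sites per 1000000 cut sites in OCRs of every list. For the lists of other cell types, the endothelial list ranged from 350 to 421, the epithelial from 386 to 464, the myogenic from 355 to 412, the blood and macrophage from 455 to 546, the neuronal from 300 to 367 and the Schwann and neural crest from 173 to 262.

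Members were more unevenly spread over the clusters than shared OCRs. An OCR was called uneven where its level in the highest cluster was at least 2 times that in all other nuclei, which held for 32493 of the 88054 autosomal E12.5 regions with a count in 1% or more of nuclei (36.9%). It held for 4651 of 6770 members (68.7%, interval 67.6 to 69.8), for 38.1% of OCRs of every list and for 54.6% of those of the E12.5 and E16.5 lists. Because few counts make levels uneven by sampling alone, the shares were compared at equal openness. At 1 to 1.25% of nuclei they were 70.4% (68.7 to 72.1) for members, 53.8% (52.4 to 55.1) for every list and 55.1% (53.5 to 56.6) for the E12.5 and E16.5 lists, with median cut sites of 195, 194 and 193 per OCR. At 2 to 3% they were 68.3%, 39.7% and 53.6%, with median cut sites of 439, 448 and 434. At 3 to 7% they were 66.9%, 27.4% and 48.9%, but there OCRs of every list held more counts, with a median of 829 cut sites against 673 in members and 664 in the E12.5 and E16.5 lists. The share fell with openness most in OCRs of every list, and varied less in members and in the E12.5 and E16.5 lists.

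**Figure D5:**
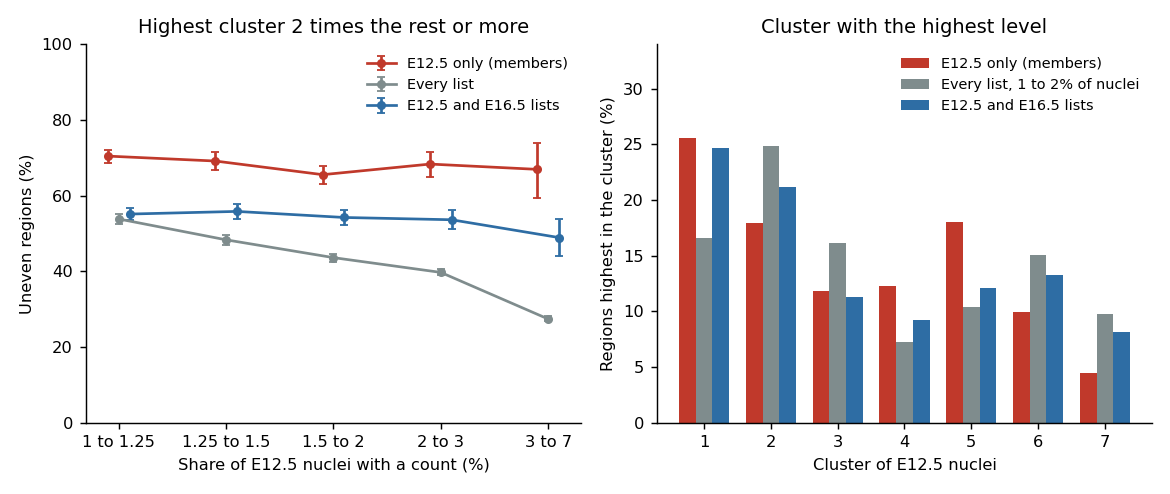
Left, share of uneven regions (vertical axis, %) with 95% exact binomial intervals, by the share of E12.5 nuclei with a count (horizontal axis, %), where members lie between 65.5 and 70.4% and above both other sets in every class. Right, share of regions (vertical axis, %) with their highest level in each of the 7 clusters, where cluster 1 takes 25.6% of members and cluster 7 takes 4.43%.

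Cluster 1 was the highest cluster for 1735 members (25.6%), against 16.6% of OCRs of every list open in 1 to 2% of nuclei and 24.7% of those of the E12.5 and E16.5 lists. For clusters 5 and 4 the members' shares, 18 and 12.3%, were above the 10.4 and 7.27% of those OCRs of every list and the 12.1 and 9.22% of OCRs of the E12.5 and E16.5 lists. For clusters 2, 6 and 7 the members' shares, 17.9, 9.97 and 4.43%, were below the 24.8, 15.1 and 9.77% of OCRs of every list and the 21.2, 13.3 and 8.19% of the E12.5 and E16.5 lists. For cluster 3 the members' 11.8% was below the 16.1% of OCRs of every list but near the 11.3% of the E12.5 and E16.5 lists. The members and the E12.5 and E16.5 lists were taken here over their whole range of openness, with a median of 1.33 and 1.39% of nuclei, beside 1.46% for OCRs of every list at 1 to 2%. Members took 2.57% of the cut sites of cluster 1 and 1.85% of those of clusters 3 and 6.

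Named members differed in where they were highest. In cluster 1 the Wnt5b OCR had 32.1 per 1000000 against 7.53 in other nuclei (4.26-fold), and the Fgf9 OCR chr14:58035856-58036882 had 13.5 against 3.91. Cluster 4 held the peak of the OCRs of Fbxo8 (35.6 against 11.5, 3.09-fold), of Creb5, a joint gene, at chr6:53664446-53665445 (16.3 against 4.28), of Ptch1 (16.5 against 6.08) and of Eya1 (16.4 against 6.28). The Fgf10 OCR (17.5 against 5.08) and both OCRs of Mkx, a tendon factor (9.68 against 2.7, and 6.39 against 1.75), were highest in cluster 5. An OCR 177040 bp from Cyp26b1, which encodes a retinoic acid degrading enzyme, at chr6:84409668-84410640, had 15.4 in cluster 2 against 2.32 elsewhere, a ratio of 6.66. In cluster 3 the OCRs of Pax9 in an intron of Slc25a21 (11.8 against 3.42) and of Cdh1, the gene of E-cadherin (13.2 against 3.29), were highest. By contrast the OCRs of En1 (23.4 against 13.9) and Abra (21 against 15.2) stayed under the 2-fold mark, as did the Hand2 OCR (10.7 against 7.1). Of the 20 members nearest to Cdh2, 7 were highest in cluster 3, 5 in cluster 5, 4 in cluster 1 and 3 in cluster 4, so the members nearest to Cdh2 did not share a cluster. Members had a count in 83 to 562 nuclei over the whole library, and the level in 1 cluster rests on fewer counts. The Mkx OCRs had 97 and 64 cut sites in cluster 5, and the Hand2 OCR 81 in cluster 2.

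OCRs of every list around the members were then followed in the later libraries, since those were counted at all 3 stages. Off promoters and open in 1% or more of E12.5 nuclei, the 3908 such OCRs within 10 kb of a member had a median log2 ratio of E16.5 to E12.5 level of -0.49 (quartiles -1.29 and 0.16), and 69.6% were lower at E16.5. The median was -0.30 for the 21015 OCRs 10 to 100 kb from a member, of which 63.1% were lower, and -0.13 for the 26836 farther away, of which 55.8% were lower. From E12.5 to E14.5 the medians were -0.61, -0.54 and -0.47, and from E14.5 to E16.5 they were 0.10, 0.19 and 0.30. Per kb of peak, the E16.5 to E12.5 medians were -0.40, -0.33 and -0.26, which lay much closer together. The log2 ratios of E16.5 to E12.5 peak width were -0.06, 0.01 and 0.08 in the same order, so part of the ordering goes with peak width. Promoters of genes nearest to 5 or more members had a median of -0.17 (257 promoters), those of genes nearest to 1 to 4 members -0.09 (2934), and those of genes nearest to none 0.01 (10515). These promoters had medians of 0.19, 0.21 and 0.26 from E12.5 to E14.5 and of -0.38, -0.33 and -0.27 from E14.5 to E16.5. Per kb of peak, their E16.5 to E12.5 medians were -0.25, -0.20 and -0.17, which also lay closer together. Levels were per 1000000 cut sites in OCRs of every list, a scale that shifts all groups alike. The same E12.5 library gave the members and these levels, so the ordering is a description and was not tested.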

How the data were processed

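Single-nucleus ATAC-seq libraries of sorted forelimb MPs, 1 per stage, had been processed by the authors with Cell Ranger ATAC (1.1.0 in the submitters' processing notes and the methods, but 1.2.0 in the header of the E16.5 file and 1.0.1 in both others) on mm10. Peaks were called per library. Deposited matrices hold raw counts of transposase cut sites by peak and nucleus, without normalisation. Peak lists and barcodes carry no scores.

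The members, gene lists and motifs were chosen with earlier results of these data known. Lists were merged at 1 bp overlap, E12.5 counts summed per region, and regions annotated with GENCODE basic genes of GRCm38. No E12.5 region lay past a chromosome end. Named members were the 10 open in most nuclei, the 10 protein-coding genes nearest to most members (11 with ties), up to 3 members per gene list (of these a selection is printed), and the 3 richest 500 kb windows. The 5 printed sequences were the most open of these off promoters, off chromosome 18 and under 30% masked. No doublet caller was run, and the deepest 5% of nuclei were left out as an alternative. Libraries shared 213 (E12.5 and E14.5), 151 (E12.5 and E16.5) and 401 barcodes (E14.5 and E16.5), and all nuclei were kept. Clusters came from latent semantic indexing (30 components, 1 dropped for its correlation with depth over 0.5) and k-means with 10 starts. The co-opening script was tested on simulated data. Python 3.11.15, scipy 1.17.1 and scikit-learn 1.9.0 were used. Shares carry 95% exact (Clopper-Pearson) intervals. With 1 library per stage there is no replicate error and no p-value. Alternatives varied the share of nuclei, the overlap, the start sites, the motif window, the depth bins, the nuclei and the clusters. The values of 1 named item are not reported here.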

Additional observations from a re-analysis of the deposited data

How the results depend on the processing

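The count of 6770 members, 7.69% of autosomal E12.5 regions at the threshold, depends on the threshold and on depth. It was 22432 at 0.5% of nuclei (17.1% of the regions that passed the same setting) and 987 at 2% (1.88%). Without the deepest 5% of nuclei it was 4051 (5.37%). Without the E16.5 list it was 17830 (20.2%), a setting chosen after seeing the data, like the others named here as added. With nuclei thinned to 1000 fragments it was 25 (0.0996%), where only 25103 regions in all reached 1%. The count stayed between 6430 and 8353 (7.32 to 9.49%) under 500 bp slack, 50% cover and without the E14.5 list (added). The E14.5 list held 100429 autosomal peaks and the E16.5 list 208869, and the counts without each list were not adjusted for its length. Under 50% cover the share is of E12.5 peaks and not of regions. The promoter share was 2.13% at 2% of nuclei, 0.798% with protein-coding start sites only (6.76% in OCRs of every list) and 4.67% with a promoter from 2000 bp upstream to 500 bp downstream (13.3%). The median distance to a start site was 22995 bp at 0.5% and 27492 bp at 2% of nuclei, and 79036 bp to protein-coding ones (37802 bp). The median gap to an E16.5 peak was 3363 and 4194 bp at 0.5 and 2% (added). Of 20807 autosomal protein-coding genes, 6880 and 794 were nearest to a member at these settings (added), and the fullest window held 25 and 4 members (added). The NFI share was 4.8% in the central 150 bp (9.11% in OCRs of every list). Co-opening at 2 to 10 kb was 1.856 without the deepest 5% of nuclei (1.477 in OCRs of every list) and 2.125 after thinning (1.831), and with the nearest promoter 1.223 (1.221) and 1.414 (1.426). Uneven members were 61.5% with 5 clusters (32.4%) and 74.9% without the deepest 5% of nuclei (43.0%). With openness held to 1 to 2% of nuclei (added), they were 68.8% (47.7%), and co-opening at 2 to 10 kb was 1.750 (1.522). The other settings for these results took the members' whole range of openness. There OCRs of every list were more open, with a median of 2.44% of nuclei against 1.33%, so the differences are not at equal openness. In each alternative that was also run on OCRs of every list, members had the lower promoter and NFI shares, the longer distance and the higher co-opening at 2 to 10 kb and uneven share, while the co-opening with promoters changed order, pooled over 2 to 500 kb, after thinning and with openness held to 1 to 2% of nuclei, but not at 2 to 20 or 20 to 100 kb. No paired analysis was possible because each stage had 1 library. The E12.5 library was the shallowest per nucleus, and openness under 1% was not followed gene by gene.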

Other observations

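The share of OCRs open in 1% or more of nuclei that were members differed between chromosomes, from 5.44% on chromosome 11 and 5.93% on chromosome 17 to 9.16% on chromosome 14 and 9.34% on chromosome 12. Repeat-rich OCRs, with 30% or more masked bases, made up 8.36% of members and 6.68% of OCRs of every list in the members' range of openness. With openness held to 1 to 2% of nuclei the shares were 8.61% and 8.25%. Repeat-rich OCRs made up 12.5% of E12.5-only OCRs under 1%.

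Some members were much higher in 1 cluster than in the other nuclei. These were chosen after their values were seen, among members with at least 100 cut sites in their highest cluster. An intergenic OCR at chr12:67636937-67637576, 414388 bp from Mdga2, a membrane protein of synapses, had 14.8 cut sites per 1000000 in cluster 3 and 0.431 in other nuclei, a ratio of 34.4. In cluster 5 an intronic OCR of Schip1 at chr3:68160118-68160799 had 13.8 against 0.875, and in cluster 4 an intronic OCR of Sult1e1 at chr5:87585764-87586617 had 21.8 against 1.71. In cluster 2 an OCR 1772 bp from the start of Morc1 had a ratio of 9.87, and in cluster 1 an intronic OCR of Slit2, a guidance ligand, had 12.3 against 1.43.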
